A study of Mus musculus with 8 samples.

Results

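The genes described here are 46 guidance ligands and receptors that are used in vessel patterning, of 55450 genes annotated in GENCODE M21 (mouse genome GRCm38). They are 17 semaphorins, 7 plexins, 2 neuropilins, 8 Eph receptors, 4 ephrins, 2 Slit genes, 2 Robo genes, 2 Unc5 genes and 2 netrins. They are a list of named genes, drawn up with earlier results of these data known, and their data are the summits of N6-methyladenosine (m6A) peaks that fell in their annotated exons. These numbered 71 of 11158 and 59 of 8655 summits in the shCTR lists A and B, and 91 of 13675 and 62 of 9256 in the shMettl14 lists. No summit lay in exons of a pair of members, and none lay in an exon of another gene. To determine where m6A lay in vascular smooth muscle cells (VSMCs) and what Mettl14 knockdown did to it, m6A-RIP-seq had been performed on primary mouse VSMCs, in which RNA fragments bound by an anti-m6A antibody (IP) were sequenced and set against the input RNA. Both groups were cells of C57BL/6J mice, taken from the adult descending aorta, kept in culture and transduced with a lentivirus. The control group, shCTR, carried a short hairpin RNA directed at a plant microRNA, and the knockdown group, shMettl14, carried 1 hairpin against Mettl14, the partner of Mettl3 in the m6A methyltransferase. Each group had 2 IP samples, called A and B, and each IP sample had its own input and its own deposited peak list. The labels do not say whether A and B were separate cultures, so the spread between them may be technical.

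Guidance genes were named for the steering of axons, and the same ligands and receptors position cells in blood vessels. Class 3 semaphorins are secreted and signal through neuropilins, which bind the ligand, and plexins, which pass the signal to the cytoskeleton. Eph receptors are tyrosine kinases that bind ephrins on the surface of a neighbouring cell, and EphB4 and ephrin-B2 mark veins and arteries. Slit proteins bind Robo receptors, and netrins bind Unc5 receptors and others. m6A is placed by the complex of Mettl3 and Mettl14 on the A of a short motif called DRACH, in which D stands for any base but C, R for a purine and H for any base but G. It is common in long exons and around stop codons.

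Each summit is described below by its fold enrichment and its pileup. The pileup is how many IP fragments cover the summit. The fold enrichment is the authors' ratio of the pileup to the local background, with 1 added to each. Each fold enrichment is given as its percentile among all summits of the same list. A percentile of 50 is the middle of the list and 100 the top. The pileup was recovered from the deposited fold enrichment and p-value. Its median over the members' summits was 20 and 17 fragments in the shCTR lists and 18 and 14.5 in the shMettl14 lists, with a lowest value of 3 and a highest of 117, so that a single peak carries a large counting error. The list shMettl14 A was the longest and split its intervals into summits more often than the others. A peak list does not measure how much of a transcript a cell holds, and in bulk RNA fewer cells of a type and less RNA per cell cannot be told apart. Mettl14 had no exonic summit in any list, so the knockdown could not be checked here. Of 8 smooth muscle markers only Lmod1 had a summit in all 4 lists, Myh11 had one in 3, and Acta2, Tagln, Cnn1, Smtn, Myocd and Des had none. Of 7 endothelial markers Pecam1, Cdh5 and Erg had a summit in all 4 lists, Kdr had one in 3, and Tek, Tie1 and Vwf had none. The endothelial list had 9 summits in each shCTR list and 14 and 10 in the shMettl14 lists. The highest pileups of Cdh5 were 93 and 109 fragments in the shCTR lists and 65 and 70 in the shMettl14 lists. Of 6 macrophage and leukocyte markers only Csf1r had a summit, in 1 list, and that summit also lay in an exon of another gene. Of 6 neuron and Schwann cell markers only Map2 had one, in all 4 lists. Of 4 fibroblast markers Pdgfra and Col1a1 had one in all 4 lists. Endothelial cells also use Efnb2, Nrp1, Sema3f and others of the genes below, and the part of such cells in these results was not tested. The study's methods state that the inner lining of the aorta was scraped off before the cells were isolated.

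m6A peaks were found on many of the listed guidance transcripts. A summit was found in all 4 lists for 27 of the 46 genes, beside 16.0% of all protein-coding genes, and 38 genes had a summit in at least 1 list. The count belongs to this list and not to guidance genes as a whole, since of 31 others, made up of further family members and of ligands and receptors that bind them, 6 had a summit in all 4 lists and 19 had none. Among genes with any summit, the share found in all 4 lists was 71.1% for the guidance genes and 63.0% for all protein-coding genes. The number of members with a summit was 32 in shCTR A, 29 in shCTR B and 32 in each shMettl14 list. The 8 genes without a summit were Sema4a, Sema4d, Sema5a, Plxna3, Ephb3, Ephb6, Efna5 and Robo2. By family, all 4 lists held a summit for 11 of 17 semaphorins, 4 of 7 plexins, 2 of 2 neuropilins, 4 of 8 Eph receptors, 2 of 4 ephrins, 1 of 2 Slit genes, 0 of 2 Robo genes, 1 of 2 Unc5 genes and 2 of 2 netrins. The most summits were those of Slit2 (31 over the 4 lists), Plxna2 (23) and Epha4 (22). Per length of the transcript and averaged over lists, Slit2 had 0.996 summits per kb, Efnb2 0.939 and Epha4 0.869.

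**Figure D1:**
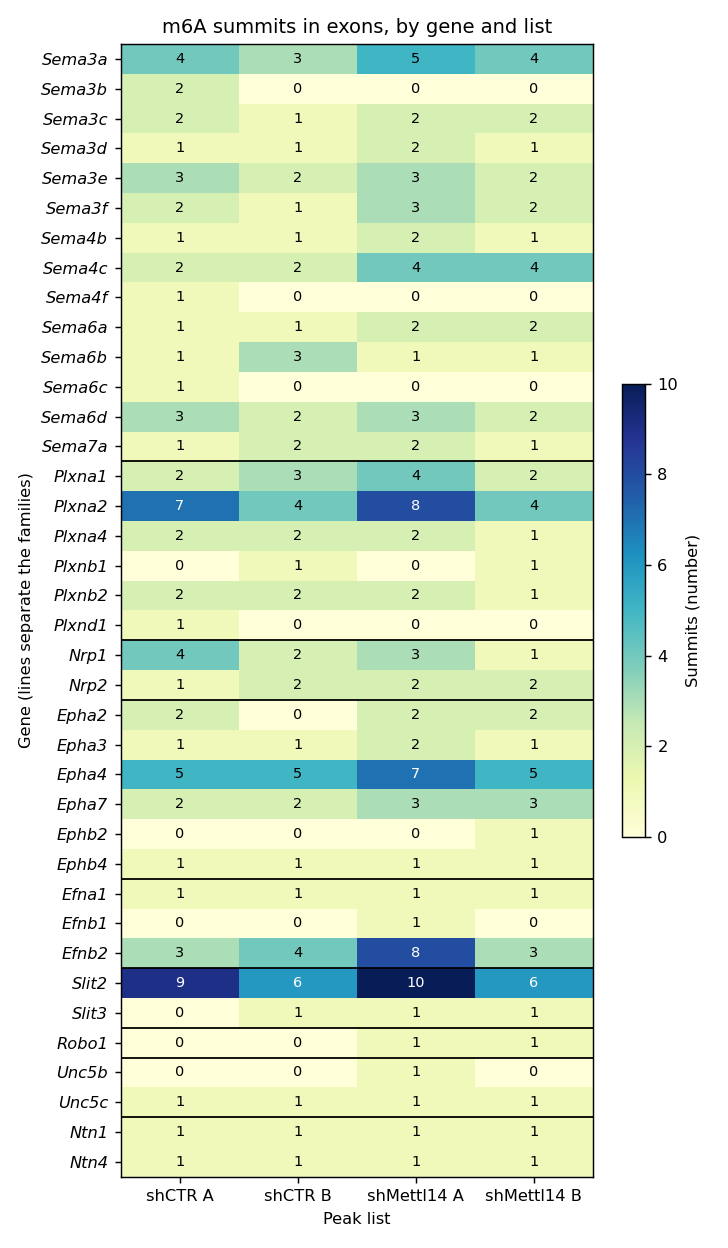
Number of m6A summits in exons of each guidance gene (rows, grouped by family) in each of the 4 peak lists (columns), as printed and coloured in each cell. The 8 genes without a summit are left out. Slit2 has 6 to 10 summits in each list, while genes such as Ntn1, Ntn4, Ephb4 and Efna1 have exactly 1 in each.

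The class 3 semaphorins, the secreted ligands, carried some of the strongest peaks. Sema3a, a repellent that binds neuropilin-1, had its strongest region in the last exon (chr5:13599192-13600128), where the percentile was 97.9 and 92.7 in shCTR A and B and 97.2 and 96.8 in shMettl14 A and B. Sema3c, which acts in the outflow tract of the heart, stood at 94.4 and 94.0 in the shCTR lists and 98.1 and 95.0 in the shMettl14 lists. Sema3e, the ligand of plexin-D1, stood at 98.8 and 95.5 in the shCTR lists and 92.9 and 97.0 in the shMettl14 lists. Sema3a and Sema3e therefore overlapped between groups, and the shMettl14 values of Sema3c were both above its shCTR values. Sema3d was more variable, at 77.9 and 95.7 in the shCTR lists and 75.3 and 48.0 in the shMettl14 lists. In these 4 genes the leading summits lay in the coding part of the last exon. Counted in nt from the stop codon, with negative positions upstream, the leading summits ran from -174 to -129 in Sema3a, from -164 to -115 in Sema3c and from -209 to -148 in Sema3d. In Sema3e they ran from -375 to -347 in 3 lists. In shMettl14 A the leading summit of Sema3e was at -207, and a deeper one of lower fold enrichment was at -349. The DRACH nearest the median summit is printed for each in capitals, with 10 nt on either side. Within 50 nt of the median summit lay 4 DRACH in Sema3a and 3 each in Sema3c, Sema3d and Sema3e. A printed site is thus the nearest motif and is not singled out by the peak.
Sema3a (chr5:13599444-13599468, plus strand): tgagttctgtGAACAagtgtggaaa
Sema3c (chr5:17727620-17727644, plus strand): agtactgcaaAGACAcccggcagca
Sema3d (chr5:12585100-12585124, plus strand): tgagatacaaAGACTacatccaaat
Sema3e (chr5:14252416-14252440, plus strand): tatttttgccAGACAgtagaacaca
The distance from the median summit to the A of the motif was 2 nt in Sema3a, 10 nt in Sema3c, 9 nt in Sema3d and 2 nt in Sema3e. In a pairwise alignment of the coding parts of these exons, the A of Sema3a and that of Sema3c lay 2 nt apart, and those of the other pairs lay 52 nt or more apart. Sema3a also had summits past the stop codon in every list, at 57 and 379 nt in shCTR A and 71 and 326 nt in shCTR B.

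Sema3f, a ligand of neuropilin-2, had its peak in the 3′ UTR. Its percentile was 97.7 and 96.9 in the shCTR lists and 94.0 and 98.8 in the shMettl14 lists, and the pileups were 91 and 86 fragments against 56 and 59. The percentiles of the groups overlapped, whereas the pileups did not. The pileups are not scaled between lists. Their medians over all summits were also lower in shMettl14, at 14 and 13 fragments against 16 and 16. Fisher's exact test on pileups pooled by group gave an unadjusted p of 0.068 for this region. The transcript with the longest coding sequence, which was used for positions, ends shortly after the stop codon of Sema3f, so the median summit was placed in another annotated transcript, 185 nt past the stop codon. Sema3b, the remaining class 3 member, had 2 summits in shCTR A and none elsewhere.
Sema3f (chr9:107682240-107682264, minus strand): tccagaacttAGACCcgtgttggtc

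Among the membrane-bound semaphorins, Sema4c, a ligand of plexin-B2, had the highest percentile of all the guidance genes. The fold enrichment of its 3′ UTR region (chr1:36549250-36550169) was 29.9 and 28.1 in shCTR A and B and 30.5 and 26.1 in shMettl14 A and B, which placed it at percentiles 99.9, 99.6, 99.9 and 99.4. The pileups were 50, 45, 57 and 44 fragments. The groups overlapped in each of these values. The summits lay 159 to 202 nt past the stop codon, and the nearest DRACH was 1 nt from their median. Weaker summits in the coding sequence followed in every list, at -503 in shCTR A and -532 in shCTR B.
Sema4c (chr1:36549336-36549360, minus strand): tggctcaccaGGACTtcagcctcac
Sema6d, a transmembrane semaphorin that binds plexin-A1, had a coding region with percentiles of 77.5 and 91.6 in shCTR and of 91.5 and 65.6 in shMettl14, so the groups overlapped. A second region of Sema6d in the 3′ UTR was weak, at percentiles 19.7 and 17.5 against 19.6 and 33.0.
Sema6d (chr2:124665048-124665072, plus strand): tttgttatctAGACAgccgagtatg
Sema4b stood at 78.3 and 53.0 in the shCTR lists and at 96.2 and 47.1 in the shMettl14 lists, so that the replicates of 1 group differed more than the groups did. Sema6a and Sema7a, the latter bound to the membrane by a lipid anchor, had their regions below the middle of most lists. Sema6b had summits in all 4 lists but no region common to them. Sema4f and Sema6c had 1 summit each, in shCTR A.

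The plexins, the receptors of these ligands, differed from the semaphorins in where the summits lay. Of 51 plexin summits 3 lay within 200 nt of the stop codon, and of 95 semaphorin summits 37 did. Plxna1, Plxna2 and Plxna4, which encode close relatives, each had summits in exon 2, a long exon that encodes part of the extracellular sema domain. In Plxna1 the leading summit ran from -5373 to -5322 over the 4 lists, and its percentile was 65.7 and 62.9 in the shCTR lists and 79.2 and 87.6 in the shMettl14 lists. The shMettl14 values were both higher. The pileups of Plxna1 were 37 and 32 fragments against 36 and 35, and its backgrounds were 2.99 and 2.50 against 2.42 and 1.53. In Plxna4 the percentile was 42.9 and 49.0 in the shCTR lists and 80.2 and 10.5 in the shMettl14 lists, on pileups of 5 to 15 fragments, and the summits were spread over 302 nt. Plxnb2 had its region in exon 4, also far from the stop codon. Its percentiles were 67.0 and 66.3 in shCTR and higher, at 73.7 and 83.5, in shMettl14. Its pileups were lower in shMettl14, at 48 and 44 fragments against 37 and 39, and its backgrounds were 4.04 and 3.56 against 2.81 and 2.07. In both genes the higher percentiles thus came with lower backgrounds, and the part of this in the result was not tested. The motif nearest the median Plxna1 summit was 6 nt away. In pairwise alignments of these exons, the A of this motif lay 132 nt from that of Plxna4 and further still from that of Plxnb2.
Plxna1 (chr6:89357278-89357302, minus strand): ttctactgctGGACTatgcagccaa
Plxna2 had 4 regions that were found in all 4 lists. Its highest lay in a transcript with a retained intron upstream of the main first exon, with percentiles of 88.4 and 99.1 in shCTR and of 72.6 and 97.4 in shMettl14, and no DRACH lay within 50 nt of the median summit, so that no site is printed. In its exon 2 region the summit of highest fold enrichment lay in the neighbouring intron in every list, so the rank of that region is not the rank of an exonic summit. A region 192 nt past the stop codon stood at 86.4 and 65.3 against 74.1 and 62.6. Plxnb1 had 1 summit in each of 2 lists, at different places, and Plxnd1 had 1 summit in shCTR A.

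Nrp1 and Nrp2, the co-receptors that bind class 3 semaphorins and VEGF, both had a region around the stop codon. The Nrp1 region stood at 85.4 and 90.1 in the shCTR lists and at 96.3 and 89.6 in the shMettl14 lists, with an overlap of the groups. It held summits close to the stop codon, at -50 to -23 over the 4 lists, and further summits in the 3′ UTR in 3 lists. Which of them had the highest fold enrichment changed from list to list, so the median fell between them and no site is printed. At the summit close to the stop codon the percentiles were 85.4 and 89.3 in shCTR and 92.4 and 89.6 in shMettl14, without overlap. The pileups there were 86 and 91 fragments against 79 and 76. Nrp2 was weaker in pileup, with 7 and 18 fragments in the shCTR lists and 6 and 11 in the shMettl14 lists. Its percentiles were 44.7 and 91.9 against 38.5 and 67.0, with an overlap. The spread between the shCTR lists was larger than the difference between groups.

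In the Eph receptors the summits fell at 2 places, in the long exon 3 and around or past the stop codon. Epha2, Epha3, Epha4 and Epha7 each had a coding region in exon 3, which encodes much of the domain that binds the ephrin. In Epha4 the leading summit was at -2601 and -2618 in shCTR A and B and at -2612 and -2606 in shMettl14 A and B, a spread of 17 nt. Its percentile was 71.7 and 87.6 in the shCTR lists and 83.3 and 89.9 in the shMettl14 lists, on pileups of 60, 71, 51 and 47 fragments. Epha7 stood at 89.0 and 62.5 against 68.4 and 60.1, and Epha3 at 44.7 and 58.9 against 70.0 and 21.1, both on pileups of 6 to 16 fragments. Epha2 had the region in 3 lists and not in shCTR B, at a percentile of 56.2 in shCTR A and of 44.3 in shMettl14 B, and lower in shMettl14 A. The exons of Epha3, Epha4 and Epha7 were aligned pairwise, with 68.8% to 70.5% identical bases. The A of the DRACH nearest the median summit was the same aligned base in all 3 pairs. That of Epha2, whose exon shared 59.6% to 63.8% of aligned bases with the other three, lay 12 nt away from it. These 4 sites were compared after the positions of the summits had been seen.
Epha2 (chr4:141308591-141308615, plus strand): tcatgcaaagAGACCttcaacctct
Epha3 (chr16:63773369-63773393, minus strand): ttggttttggGGACTtgcaaggaga
Epha4 (chr1:77507010-77507034, minus strand): ggcgtcatggGGACTtgcaaggaga
Epha7 (chr4:28821176-28821200, plus strand): ggagtcctggGAACTtgcaaggaaa
The distance from the median summit to the A was 2 nt in Epha2, 10 nt in Epha3, 1 nt in Epha4 and 4 nt in Epha7. Between lists the leading summits were spread over 56 nt in Epha2, 157 nt in Epha3 and 47 nt in Epha7. The Epha3 site is therefore near the median of its summits but not near each of them. The strongest region of Epha4 by mean percentile was another, in the 3′ UTR, at 78.5 and 85.3 in the shCTR lists and 89.2 and 87.1 in the shMettl14 lists. The leading summit was not the same in every list, however. It lay 552 and 530 nt past the stop codon in the shCTR lists and 563 nt past it in shMettl14 B, but 712 nt past it in shMettl14 A. The shMettl14 A summit at 550 nt stood at 68.2, below both shCTR values, so the groups overlapped at the site that the lists shared.
Epha4, 3′ UTR (chr1:77373165-77373189, minus strand): tcaatggccaGGACAcctggtggat
Ephb4, the receptor known from veins, had 1 summit per list, 81 and 68 nt past the stop codon in the shCTR lists and 106 and 114 nt past it in the shMettl14 lists. Its percentile was 53.5 and 45.5 in the shCTR lists and 79.4 and 73.3 in the shMettl14 lists, without overlap. The pileups were 19 and 18 against 18 and 13 fragments, and the backgrounds were 1.46 and 1.5 against 0.752 and 0.278, so the higher percentiles came with a lower background and not with more fragments. Backgrounds were also lower in shMettl14 over the summits of other coding genes, with medians of 0.977 and 0.671 against 1.13 and 1.05, and the part of this in the result was not tested. Ephb2 had 1 summit, with 3 fragments, in shMettl14 B.

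Of the ephrins, Efnb2, the ligand of EphB4 known from arteries, had the highest pileups of all the guidance genes in 3 of the 4 lists. In shMettl14 A the highest was 79 fragments, in Nrp1. At its stop codon region (chr8:8619836-8621007) the pileup was 97 and 117 fragments in the shCTR lists and 76 and 84 in the shMettl14 lists. The percentile was 96.7 and 98.4 against 93.8 and 98.2, with an overlap. The pileups of the shMettl14 lists were thus the lower ones, as were the median pileups of those lists over all summits, at 14 and 13 fragments against 16 and 16. The transcript also had a region in exon 2 at percentiles 73.3 and 86.5 against 84.8 and 78.9, and one in the 5′ UTR at 49.4 and 89.0 against 74.9 and 86.4. In the stop codon region the nearest DRACH was 23 nt from the median summit.
Efnb2 (chr8:8620464-8620488, minus strand): gcctggatctGGACAgttttgtagt
Efna1 had a single 3′ UTR summit in each list, at 55.2 and 53.0 in the shCTR lists and 70.6 and 54.1 in the shMettl14 lists. Efnb1 had 1 summit, with 6 fragments, in shMettl14 A.

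Slit2, which encodes a large secreted ligand of Robo receptors, had summits at both ends of its transcript. Of its 31 summits 15 lay in the 5′ UTR, and all 15 were below the middle of their lists, at percentiles of 0.60 to 45.6. Around the stop codon every list had a coding summit, at -119 and -145 in shCTR A and B and at -101 and -105 in shMettl14 A and B. Slit3 had summits near the stop codon in 3 lists. Robo1, the receptor, had a summit in the 5′ UTR in both shMettl14 lists, at percentiles 32.4 and 22.3, and Robo2 had none. Unc5c, a netrin receptor, had 1 summit per list, 65 to 91 nt past the stop codon, at 69.3 and 67.9 in the shCTR lists and 81.8 and 59.6 in the shMettl14 lists. Unc5b had 1 summit, at percentile 1.40, in shMettl14 A.

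The netrins, ligands of the laminin type, each had 1 summit per list. Ntn4 carried it in exon 2, with percentiles of 93.1 and 72.1 in shCTR and of 91.3 and 88.3 in shMettl14, with an overlap of the groups. Ntn1 carried it at -111 to -70, with percentiles of 48.7 and 54.5 against 56.9 and 61.0, on a pileup of 13 fragments in every list. The groups of Ntn1 did not overlap, and its change of 0.19 normal scores, a scale explained below, was smaller than its SE of 0.50.
Ntn4 (chr10:93644860-93644884, plus strand): gactttgggaAGACCtggaagcctt

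**Figure D2:**
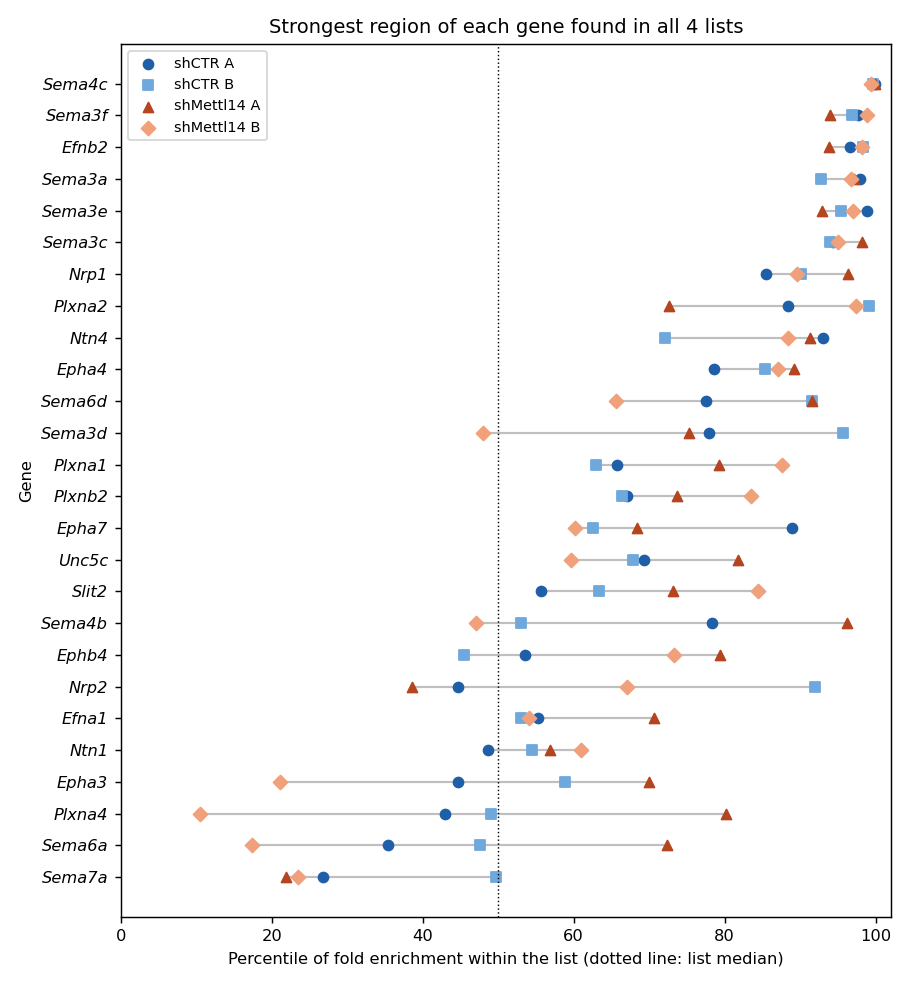
Percentile of fold enrichment within each list (x axis, 0 to 100) for the strongest region of each of the 26 guidance genes with a region found in all 4 lists (y axis), with 1 point per list and a grey line from the lowest to the highest. Sema4c, Sema3f, Efnb2, Sema3a, Sema3e and Sema3c lie above percentile 92 in every list, and the spread between lists widens for the genes further down.

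**Figure D3:**
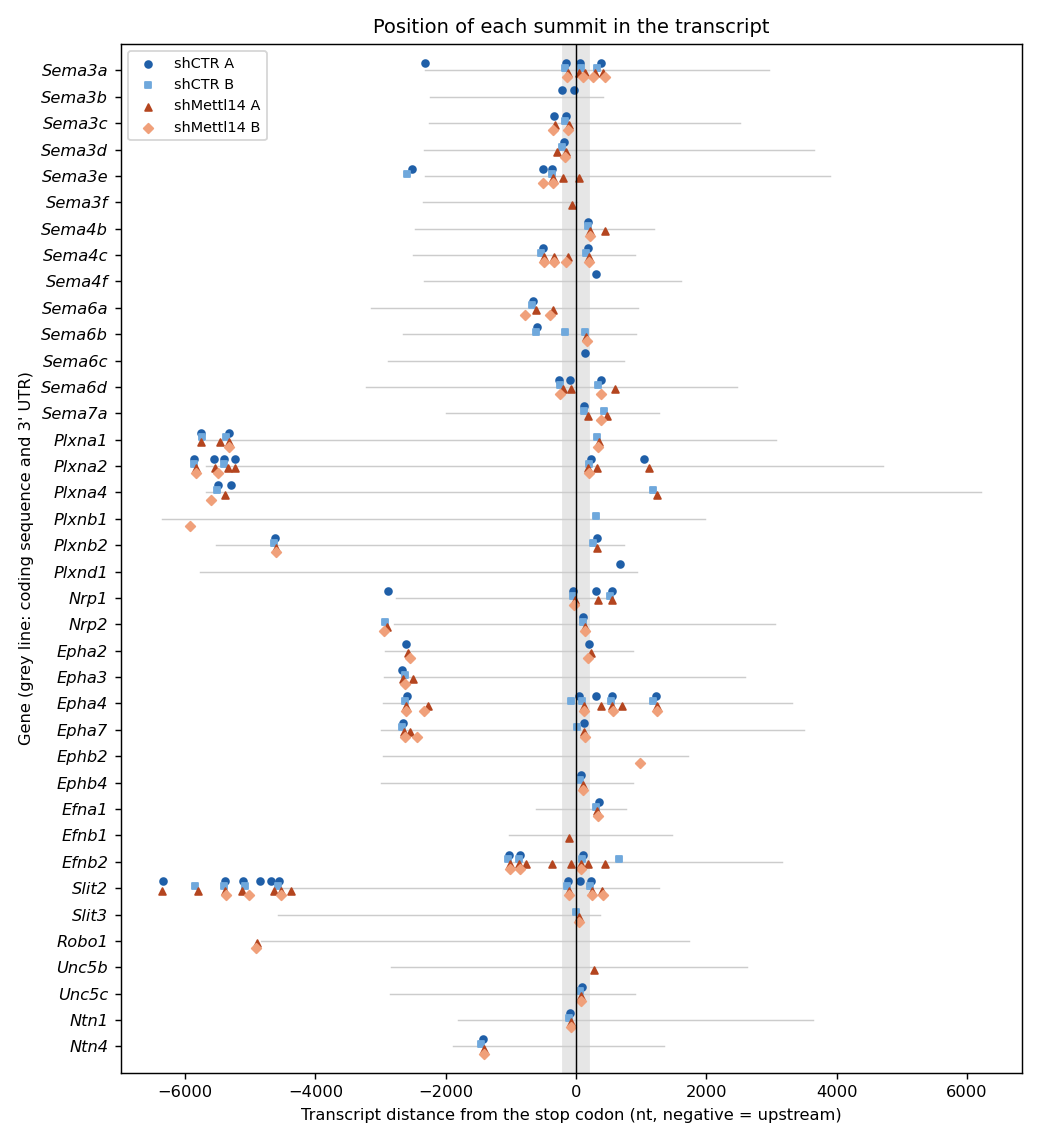
Distance of each summit from the stop codon in nt (x axis, negative upstream) for each gene (y axis), 1 point per summit coloured by list; the grey lines show coding sequence and 3′ UTR and the grey band the 200 nt on either side of the stop codon. The class 3 semaphorins gather around the stop codon, the EphA receptors also at the exon 3 place near the start of the coding sequence, and the plexin-A genes near the start of theirs.

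To see what the summits share, their place in the transcript was set beside that of summits in all other coding genes of the same list. Of the members' summits 31.6% ± 2.68 (SD, n = 4 lists) lay within 200 nt of the stop codon, and of the other summits 26.5% ± 0.767. The members' share was higher in 4 of 4 lists, by 2.67 to 8.33 percentage points. The direction depended on the window, since within 100 nt the members' share was lower, with a mean difference of -2.0 points. The members had fewer summits in coding sequence, at 45.5% ± 3.05 against 66.4% ± 0.878, and more in the 3′ UTR, at 41.9% ± 1.98 against 31.1% ± 1.09. They also had more in the 5′ UTR, at 12.7% ± 2.97 against 2.51% ± 0.246. This 5′ UTR share of the members was 16.18% and 14.04% in the shCTR lists and 10.23% and 10.17% in the shMettl14 lists, so its SD includes a difference between groups that was not tested. The differences for coding sequence, 3′ UTR and 5′ UTR had the same direction in every list. Summits of a gene share a transcript and are not replicates, so no test was run over them. Slit2 alone held 15 of the 34 summits in 5′ UTRs, and without Slit2 the members' share was 8.16% ± 2.33. Summits lay in exons over 400 nt in 96.8% ± 1.10 of cases for members and 97.8% ± 0.408 for the other genes, which differed by less than the spread between lists. Counted by region, 13 of the 33 members' regions that were found in all 4 lists and lay in the chosen transcript were within 200 nt of the stop codon (39.4%, against 30.2% in other genes). In 5′ UTRs there were 2 of the 33 (6.06%, against 2.25%), a smaller difference than by summit.

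A DRACH, searched on the transcript strand, lay within 50 nt of 92.7% ± 1.58 (SD, n = 4 lists) of the members' summits and of 95.2% ± 0.654 of the others, with the members lower in 4 of 4 lists. The letters GGAC, which overlap DRACH, were within 50 nt of 67.0% ± 4.12 of the members' summits and of 54.8% ± 2.91 of the others, with the members higher in 4 of 4 lists. GGACT was as frequent in both, at 22.6% ± 2.21 and 21.2% ± 1.72, within the spread between lists. In the same 33 regions the median distance from the median summit to the nearest DRACH was 5 nt, and 28 had it within 20 nt. The nearest motif began with GGAC in 13 of them. Regions of other genes were not counted in this way, so these numbers cannot be called particular to the members. A match is a description of these letters and does not show that the base was methylated.

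**Figure D4:**
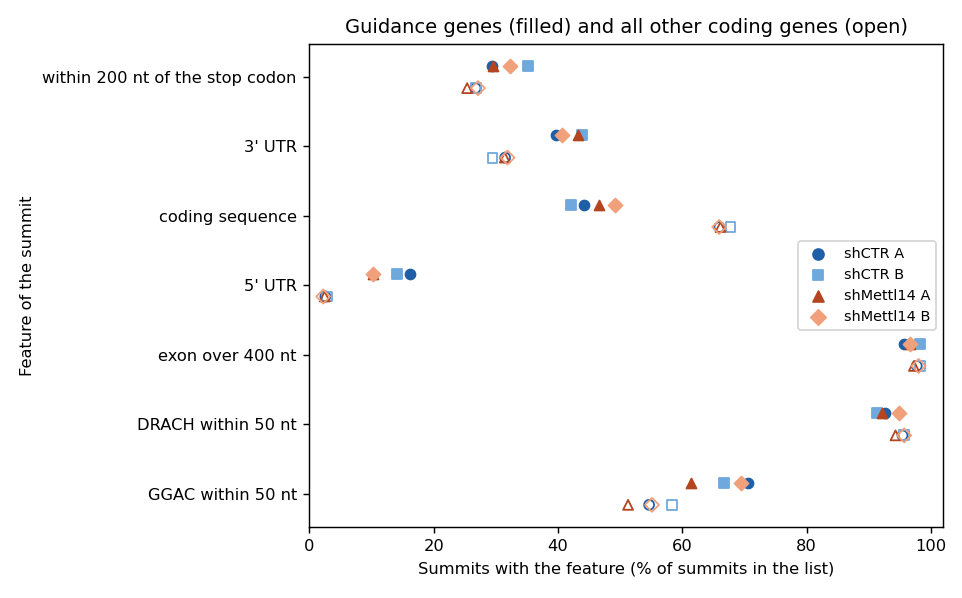
Share of summits with each feature (y axis) in percent of the summits of the list (x axis), for the guidance genes (filled points) and for all other coding genes (open points), 1 point per list. The guidance genes lie to the left for coding sequence, and to the right for the 3′ UTR, the 5′ UTR and GGAC, in all 4 lists.

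The comparison of shMettl14 with shCTR asked whether less Mettl14 changed m6A on these transcripts. The members' summits numbered 65.0 ± 8.49 in shCTR and 76.5 ± 20.5 in shMettl14 (SD, n = 2 lists each), a ratio of 1.18 that did not pass the two-sided exact permutation test (p = 0.667), which cannot give a p below 0.333 with 4 lists. The direction rested on shMettl14 A, since without it the ratio was 0.954. Members made up 0.636% and 0.682% of all summits in the shCTR lists and 0.665% and 0.670% in the shMettl14 lists, with an overlap. Counted as distinct intervals, the numbers were 51 and 48 in the shCTR lists and 55 and 49 in the shMettl14 lists.

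Merging overlapping intervals over lists gave 63 regions in the guidance genes, of which 36 were found in all 4 lists, or 57.1%, beside 51.8% of the regions in exons of all protein-coding genes. Both shCTR lists and neither shMettl14 list held 2 of the 63 regions (3.17%, background 1.64%), and both shMettl14 lists and neither shCTR list held 1 (1.59%, background 1.60%). These are counts of 1 and 2, and no region was found in both lists of only 1 group when summits with a −log10 q under 5 were left out. The regions found in both shCTR lists only were in Sema3e, in the 5′ UTR, at percentiles 41.4 and 11.9, and in Sema6b, in the coding sequence of the last exon, at percentiles 45.2 and 11.6. The pileups were 12 and 8 fragments in Sema3e and 8 and 7 in Sema6b. The region found in both shMettl14 lists only was that of Robo1, on 8 and 7 fragments. All 3 thus lay in the lower part of their lists. Their nearest DRACH was 25 nt from the median summit in Sema3e, 20 nt in Sema6b and 39 nt in Robo1.
Sema3e, 5′ UTR (chr5:14025693-14025717, plus strand): tccgcgcttcTAACCaccgggccca
Sema6b (chr17:56124579-56124603, minus strand): cagaatggctGGACAaaggcagcgc
Robo1 (chr16:72664101-72664125, plus strand): tcttggcatgAGACTgtatgcagga

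For the 36 regions found in all 4 lists, the rank of the fold enrichment within each list was turned into a normal score and the groups were compared with limma over all 4929 such regions. No region of a guidance gene passed an adjusted p of 0.05, and no region of any gene did (0%, smallest adjusted p = 0.796 in limma). Without shMettl14 A, when the spread came from the shCTR lists alone and the lone shMettl14 list was assumed to vary like them, 3 regions over all genes passed, none of them in a guidance gene (smallest adjusted p = 0.0195 in limma). At an unadjusted p under 0.05 there was 1 of the 36 regions (2.78%), beside 4.93% of all regions. Fisher's exact test on the recovered pileups, pooled over the lists of a group and so covering counting error only, called 0 of the 36 after adjustment and 1 before it, the Slit2 region described next. Over all 4929 regions it called 0 after adjustment and 158 before it. The median change over the 36 regions was 0.18 normal scores, and over all regions it was 0.00. Without shCTR A the members' median was 0.000182, so this difference rested on 1 list, and on ranks of the recovered pileup it was 0.04. Both shMettl14 percentiles lay above both shCTR percentiles in 9 of the 36 regions (background 17.3%) and below them in 2 (5.56%, background 14.3%). The 9 include the Epha4 region led by different summits and the Plxna2 region led by an intronic one. Such a comparison of ranks cannot see a loss of m6A that is the same for all peaks.

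The region with the unadjusted p under 0.05 was that of Slit2 at the stop codon (chr5:48303862-48304711). Its percentile was 65.0 and 24.4 in shCTR A and B and 91.6 and 86.8 in shMettl14 A and B, so the groups did not overlap. Its change was 1.52 normal scores with an SE of 0.51. It did not pass the test (limma, adjusted p = 0.798), and without shCTR B the change was 1.02. The unadjusted p of 0.00675 from limma was 0.123 without shCTR B and 0.0532 on ranks of the recovered pileup, so the region was then no longer under 0.05. Without shCTR B the spread came from the shMettl14 lists alone, and the lone shCTR list was assumed to vary like them. The pileup was 42 and 29 fragments in the shCTR lists and 45 and 39 in the shMettl14 lists, and the background was 3.56 and 3.94 against 2.25 and 1.86. The higher fold enrichment in shMettl14 thus came with a lower background in both lists and a mean pileup of 42 against 35.5 fragments, with overlapping groups, and the part of each in the result was not tested. The Slit2 region in exon 1 also had both shMettl14 percentiles above the shCTR ones, at 73.1 and 84.4 against 55.7 and 63.4, with a change of 0.60 ± 0.51. The regions with both shMettl14 percentiles below the shCTR ones were that of Sema3d at the end of the coding sequence, with a change of -1.06 ± 0.53 and an adjusted p of 0.985 in limma, and that of Sema7a, a ligand of integrins and plexin-C1, with a change of -0.41 ± 0.51. The percentiles of Sema7a were 26.7 and 49.6 in the shCTR lists and 21.9 and 23.4 in the shMettl14 lists, but its leading summits lay 125 and 128 nt past the stop codon in shCTR and 470 and 384 nt past it in shMettl14, so different sites were compared. The strongest regions of Sema4c, Sema3f, Efnb2, Sema3a, Sema3e and Sema3c, the 6 genes with the highest mean percentiles, changed by -0.40 to 0.29 normal scores, each by less than its SE of 0.49 to 0.51.

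**Figure D5:**
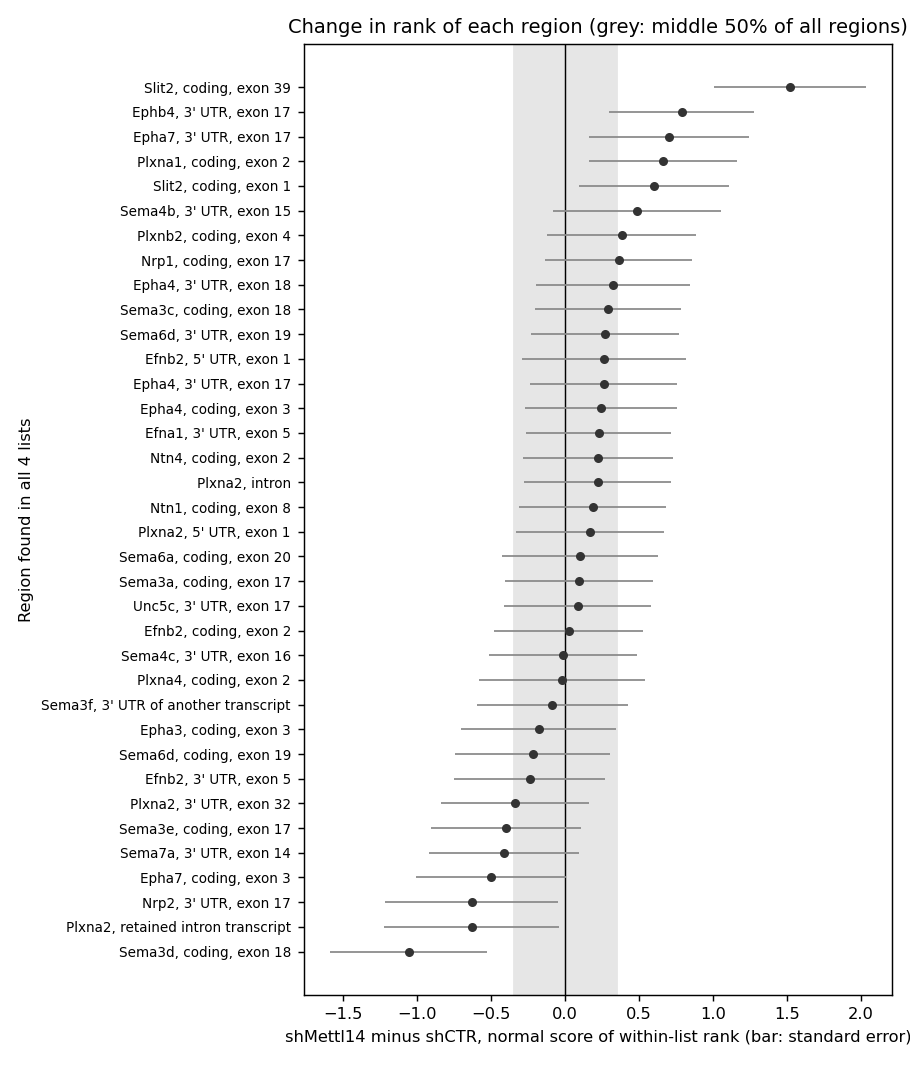
Change in normal score of the within-list rank, shMettl14 minus shCTR (x axis), for the 36 regions of guidance genes found in all 4 lists (y axis, with the place of the region); points are limma estimates, bars their SE, and the grey band holds the middle 50% of all regions. The stop codon region of Slit2 lies at 1.52 and that of Sema3d at -1.06, and the other regions lie between -0.63 and 0.79.

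The 6 guidance genes outside the list that had a summit in all 4 lists were Neo1, a netrin and RGM receptor, its ligands Rgma and Rgmb, the netrin-G gene Ntng2, and Flrt2 and Flrt3, which bind Unc5 receptors. Of 31 signalling partners, 15 had a summit in all 4 lists and 11 had none. Among the 15 were Arhgef12, an exchange factor that acts below plexin-B, Mical2 and Mical3, which oxidise actin, Srgap1 and Srgap3, which act below Robo, and Rock2, an effector of RhoA. Partners with a summit numbered 20 and 18 in the shCTR lists and 18 and 17 in the shMettl14 lists. The 2 deposited interval files, which hold the overlap of both replicates of a group, included 39 of the 63 regions for shCTR and 42 for shMettl14, and 35 were in both. The shares over all regions were not counted, so these numbers cannot be called particular to the guidance genes.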

How the data were processed

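The authors aligned reads of 4 IP and 4 input samples to mm10 and called peaks in every IP sample relative to its matched input; per the labels, STAR, SAMtools and MACS2 were used, whose versions and options are not given in the sources used here. The deposited peak lists hold the fold enrichment (a ratio of IP to background), −log10 p-value, −log10 q-value and summit of each peak. The authors also deposited 2 interval files without values. The authors' fold enrichment and p-value were solved for pileup and background, assuming that 1 was added to both in the ratio. The error was at most 0.000151 in −log10 p for every summit. Depth per sample was judged from pileups only, since total reads were not analysed here.

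Summits were placed with GENCODE M21 exons. Positions refer to 1 coding transcript per gene, that with the longest coding sequence. Intervals sharing at least 1 bp were merged into regions. limma 3.58.1 (R 4.3.3; lmFit, eBayes, Benjamini-Hochberg) was fitted on normal scores of all regions in 4 lists and was tested on simulated data. Single values were compared by exact permutation over lists. Exons of related members were aligned pairwise with Biopython, for sets chosen after the summit positions were seen. Other steps ran in Python 3.11.15 with scipy 1.17.1. The members, gene lists and tests were chosen with earlier results of these data known. Genes with values in each list were up to 20 members with the highest mean percentile, those found in both lists of 1 group only, those at an unadjusted p under 0.05 and the 3 with most summits; others named beyond these were chosen after their values were seen. Sequences were read from the GENCODE M21 transcripts. Alternatives are given at the end.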

Additional observations from a re-analysis of the deposited data

How the results depend on the processing

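The ratio of members' summits, shMettl14 over shCTR, was 1.18. It stayed above 1 with equal numbers of top summits per list (1.04), distinct intervals (1.05), the chosen transcript only, a −log10 q of at least 5 or interval midpoints, and it was 1.17 with a replicate block (the mean of the ratios within letters). Leaving out 1 list gave 0.954 to 1.40, with the value below 1 without shMettl14 A. No region of a guidance gene passed the adjusted test in any limma setting or by Fisher's exact test, with 0 to 4 at an unadjusted p under 0.05 beside 158 to 362 of all regions (4 of 40 beside 240 of 5109 without shCTR A), and the replicate block left this count at 0 and the median change at 0.18. The letters A and B do not pair the samples by any label, and deviations of same-letter lists correlated at 0.0795. Leaving out 1 list gave a median change of 0.000182 to 0.192, the lowest without shCTR A. Regions found in both shCTR lists only numbered 0 with a −log10 q of at least 5 and 2 to 8 when 1 list was left out, with 8 without shCTR B. Regions found in both shMettl14 lists only numbered 0 with equal top summits, 0 with a −log10 q of at least 5 and 3 to 5 when 1 list was left out, where a region need be found in or missing from fewer lists. The excess of summits near stop codons, 5.07 percentage points, was -2.0 with a window of 100 nt and 10.8 with 400 nt, and 3.98 to 5.87 when 1 list was left out. The cause of the other shifts was not tested. The excess in 5′ UTRs, 10.1 points, was 5.65 without Slit2 and 4.49 without Slit2 and Plxna2, settings chosen after seeing the data. With 2 lists per group and pileups of 13 to 16 fragments at a median summit, small changes could not be seen.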
